A study of Mus musculus with 9 samples.

Results

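The 10 genes described here encode lysosomal cathepsins: Ctsa, Ctsb, Ctsc, Ctsd, Ctse, Ctsh, Ctsk, Ctsl, Ctss and Ctsz. They were taken by symbol from a table of read counts for 21983 gene symbols in mouse lung, and all 10 were among the 14739 genes that passed a filter on low counts and were tested. The lungs were those of inbred BALB/c mice in 3 groups, each with 3 libraries. The BSYQF group had a chronic asthma model and received a Chinese herbal mixture, Bu-Shen-Yi-Qi formula, by mouth from day 14 at 20 g of raw herbs per kg, for 6 weeks by the labels. The asthma group had the same model and received saline by mouth from day 14. The control group consisted of normal mice given saline in the same way. The sources used here do not give how the model was induced or the age and sex of the animals. No label ties each library to its own mouse. The p-values therefore rest on the spread of these libraries, part of which may be technical.

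Cathepsins are proteases of endosomes and lysosomes, most active at acid pH. Most are papain-like cysteine proteases (Ctsb, Ctsc, Ctsh, Ctsk, Ctsl, Ctss and Ctsz), while Ctsd and Ctse are aspartic proteases and Ctsa is a serine carboxypeptidase. In the lung, macrophages are a rich source of several of them, and secreted cathepsins can cleave elastin and collagen. Cystatins inhibit the cysteine cathepsins, mannose 6-phosphate receptors carry many lysosomal enzymes from the Golgi to the lysosome, and the transcription factor TFEB binds a promoter element named CLEAR in many lysosomal genes.

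Total counts per library lay between 16286385 and 22819199, at which 3 counts correspond to 0.131 to 0.184 CPM (counts scaled to library size). The alveolar type 2 marker Sftpc stood at 13500 to 25350 CPM in the 9 libraries, whereas Pdpn, a marker of alveolar type 1 cells, had at most 3 counts in any library and Trem2, a macrophage receptor, had 0 counts in every library. The other 7 type 1 markers examined passed the filter, with Ager at 1491 to 2303 CPM. The other 9 markers on the list of lipid-associated macrophages did so too, with Cd9 at 325 to 537 CPM. Pdpn and Trem2 alone thus do not show that such cells were missing. Asthma replicate 2 had 17.1% of its counts in its 10 most abundant genes, against 7.53 to 13.7% in the other libraries. Levels below are CPM after TMM scaling. Fold changes are log2 values ± SE from edgeR's quasi-likelihood test, and called genes are those whose p, adjusted by Benjamini-Hochberg over all 14739 genes, was under 0.05.

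Ctsk and Ctss lie next to each other on chromosome 3, with 17423 bases between them, and both were higher in the asthma lungs. Their RefSeq promoter windows on GRCm38.p6, 250 bases before the start of each gene, are shown here with that of Ctsz, the gene with the next largest fold change after Ctsk. None of the 3 holds a match to the motifs searched, so all letters are in lower case.
Ctsk, chr3:95498960-95499209, plus strand: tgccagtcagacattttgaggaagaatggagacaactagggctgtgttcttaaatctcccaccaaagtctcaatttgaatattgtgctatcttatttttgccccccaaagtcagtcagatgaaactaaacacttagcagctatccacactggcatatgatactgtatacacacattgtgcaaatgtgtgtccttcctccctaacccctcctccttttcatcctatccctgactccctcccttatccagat
Ctss, chr3:95526536-95526785, plus strand: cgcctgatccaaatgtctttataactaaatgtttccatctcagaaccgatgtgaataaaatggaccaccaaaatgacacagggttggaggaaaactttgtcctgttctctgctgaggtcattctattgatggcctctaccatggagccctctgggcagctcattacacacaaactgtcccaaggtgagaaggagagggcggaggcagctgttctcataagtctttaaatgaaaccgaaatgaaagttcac
Ctsz, chr2:174439040-174439289, minus strand: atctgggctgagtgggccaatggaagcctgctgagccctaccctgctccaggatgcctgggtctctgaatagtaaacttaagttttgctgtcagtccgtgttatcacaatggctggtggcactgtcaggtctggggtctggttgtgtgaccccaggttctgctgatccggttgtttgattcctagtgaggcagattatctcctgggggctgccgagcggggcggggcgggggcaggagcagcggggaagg

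Of the 10 genes 7 had a promoter entry in the RefSeq table (8 windows, with 2 for Ctsa). The core of the CLEAR element, CACGTG, stood in the windows of 3 genes, Ctsa, Ctsd and Ctsl, searched on both strands. It occurred in 6.02% of 32817 promoter windows of the same length. Ctsd had it in 2 places, beginning 245 and 98 bases before the RefSeq start. The 3 windows that hold the motif are set by RefSeq starts that lie inside the gene as GENCODE vM21 annotates it, and each overlaps an annotated exon of its own gene, while the other 5 windows, among them another for Ctsa, do not. The Ctsa and Ctsl matches and the Ctsd match at 98 bases therefore lie inside the gene as annotated. The Ctsd match at 245 bases lies before the outermost annotated start of that gene, at 142388038. These stretches are shown because they carry the motif, which is in capitals.
Ctsa, chr2:164833751-164833772, plus strand: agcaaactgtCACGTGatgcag
Ctsd, chr7:142388057-142388077, minus strand: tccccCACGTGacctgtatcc
Ctsd, chr7:142387910-142387935, minus strand: gcccgcgtctCACGTGacccgttgag
Ctsl, chr13:64370741-64370766, minus strand: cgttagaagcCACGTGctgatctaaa

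An AP-1 site, TGANTCA, was in none of the 8 and in 6.75% of all, and a PU.1 site, GAGGAAGT, was in 1, that of Ctsc, and in 2.44% of all. Both strands were searched, and none of the 3 motifs contains another. A match is a run of letters and not a shown binding site.

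Expressed per kilobase of annotated exon (GENCODE vM21), the order of levels in the control lungs ran from Ctsd at 138 ± 14.5 CPM per kb to Ctse at 6.54 ± 3.48 (SD, n = 3). Ctsz (118 ± 4.46) and Ctss (113 ± 5.70) followed Ctsd and overlapped each other. Ctsb came next at 77.9 ± 6.66, then Ctsh at 55.3 ± 12.1 and Ctsc at 46.3 ± 4.86, which overlapped. Below them were Ctsl at 33.8 ± 3.26 and Ctsa at 30.2 ± 1.96, which overlapped, and Ctsk at 20.2 ± 6.84. Ctsk thus ranked 9 of 10 in control. In the asthma lungs it ranked 5 of 10 at 243 ± 124 CPM per kb, beside Ctsb at 247 ± 82.1. The aspartic protease Ctse, found mainly in immune and gastric cells, was the lowest member in each group, at 11.5 ± 6.42 with BSYQF and 6.67 ± 1.73 in asthma. With the longest annotated transcript as the length, Ctsl and Ctsa exchanged places in control. Ctsb, Ctsh and Ctsc then had control means of 99.4, 90.8 and 83.5 CPM per kb, so the step between Ctsb and the others depends on the length used.

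**Figure D1:**
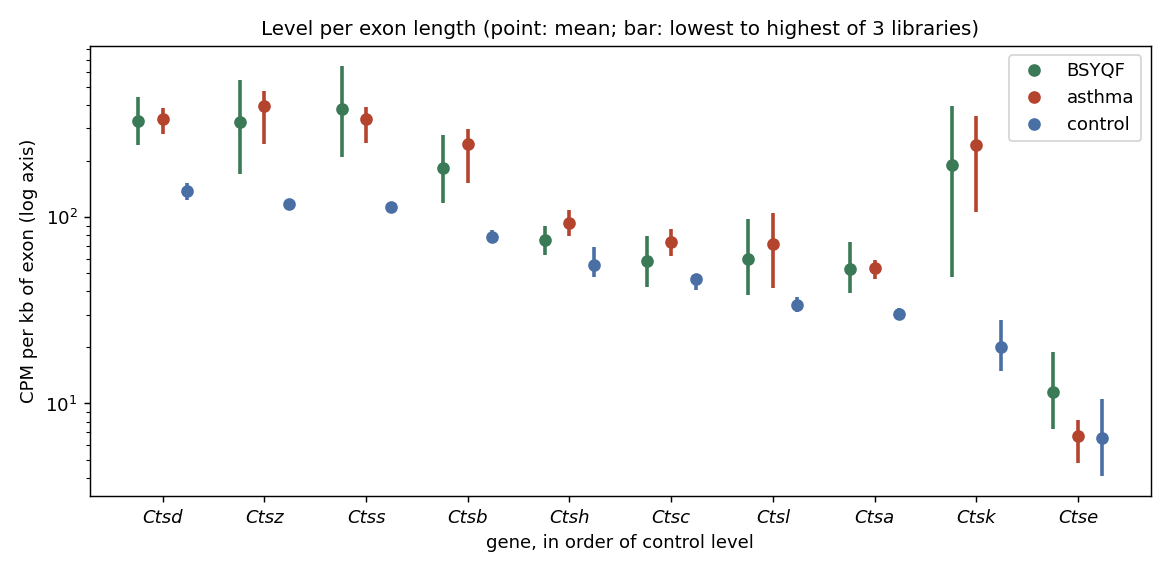
Level of each cathepsin gene in CPM per kb of exon on a log axis, for BSYQF, asthma and control lungs (point: mean; bar: lowest to highest of 3 libraries), with genes in order of their control level. Ctsk stands at 243 in asthma against 20.2 in control, while Ctse stays lowest in every group.

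Asthma was set against control to ask what the model changes in the lung. Cathepsin transcripts were more abundant in the asthma lungs: Ctsa, Ctsb, Ctsd, Ctsh, Ctsk, Ctss and Ctsz rose and none fell. The 7 of 10 genes called compare with 12.7% of all genes tested, and with 8.23% called higher. Their median log2 fold change was 1.19, beside 0.02 over all genes. Summed over the 10 genes, the level was 6371, 5648 and 3775 CPM in asthma replicates 1, 2 and 3, against 2192, 1979 and 1975 CPM in the controls. The 9 genes other than Ctse had all 3 asthma libraries above all 3 controls, which 22% of genes tested showed. In bulk lung RNA, more cells of a type and more RNA per cell cannot be told apart.

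Ctsk, a collagen-degrading protease best known from osteoclasts, had the largest fold change. Its level was 527, 414 and 161 CPM in asthma replicates 1, 2 and 3, against 42.3, 22.7 and 26.7 CPM in the controls. The lowest asthma library was thus well above the highest control, and asthma replicates 1 and 2 stood above replicate 3. The log2 fold change was 3.59 ± 0.75 (12.02-fold, adjusted p = 0.0224). The gene spans chr3:95499256-95509362 on the plus strand of GRCm38.

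Ctsz, also called cathepsin X, a carboxypeptidase of macrophages and other immune cells, had 666, 682 and 357 CPM in asthma, against 172, 162 and 174 CPM in control. The controls lay close together and the asthma libraries did not overlap them. It rose by 1.75 ± 0.38 (3.36-fold, adjusted p = 0.0216). Ctss, which in antigen-presenting cells cleaves the invariant chain of MHC class II and keeps its activity at neutral pH, had 499, 527 and 341 CPM in asthma, against 145, 161 and 154 CPM in control. It rose by 1.57 ± 0.35 (2.97-fold, adjusted p = 0.0235). Ctsz lies at chr2:174427493-174439039 on the minus strand and Ctss at chr3:95526786-95556403 on the plus strand.

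Ctsb, a broadly expressed endopeptidase and carboxypeptidase, held the most counts of the 10 genes in every library. It had 1790.1, 1774 and 921 CPM in asthma, against 517, 439 and 459 CPM in control. Asthma replicates 1 and 2 were nearly equal, and replicate 3 lay between them and the controls. It rose by 1.67 ± 0.33 (3.17-fold, adjusted p = 0.0162). Ctsd, the main aspartic protease of lysosomes, had 909.95, 812 and 655 CPM in asthma, against 360, 319 and 292 CPM in control. It rose by 1.29 ± 0.23 (2.45-fold) with the smallest p of the 10 genes (adjusted p = 0.0109). Ctsb lies at chr14:63122462-63145923 on the plus strand and Ctsd at chr7:142375911-142388038 on the minus strand. There the gene model Gm49369 overlaps Ctsd on the same strand, so that its reads may be split. Ctss and Ctsl likewise overlap processed pseudogenes on the same strand, Hmgb1-ps5 and Gm49230.

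Ctsa, which protects lysosomal beta-galactosidase and neuraminidase, and Ctsh, an aminopeptidase that in alveolar type 2 cells takes part in the maturation of surfactant protein B, rose less. Ctsa had 278, 258 and 221 CPM in asthma, against 153, 140 and 135 CPM in control (0.82 ± 0.22, 1.77-fold, adjusted p = 0.0387). Ctsh had 492, 358 and 411 CPM in asthma, against 312, 215 and 220.5 CPM in control (0.76 ± 0.20, 1.69-fold, adjusted p = 0.0393). The groups did not overlap for either gene, though the gap for Ctsh was small. Ctsa overlaps Neurl2 and Pltp, which lie on the opposite strand, and Ctsb and Ctsz overlap Fdft1 and Nelfcd in the same way. So do Ctsc and Ctsl with the noncoding genes Gm26522 and Gm47123. The sources used here do not say whether the counting used strand, so reads of such pairs may not be told apart.

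The remaining 3 genes did not pass. Ctsl, an endopeptidase that also degrades elastin, had 683, 438 and 271 CPM in asthma, against 243, 201 and 214 CPM in control (1.08 ± 0.38, adjusted p = 0.0775). Ctsc, which activates the serine proteases of neutrophils, mast cells and cytotoxic cells, had 504, 359 and 420.4 CPM in asthma, against 236, 286 and 284 CPM in control (0.67 ± 0.23, adjusted p = 0.0708). Both genes had groups that did not overlap. They were called by DESeq2 (adjusted p = 0.0331 for Ctsc and 0.0245 for Ctsl) and with the libraries of these 2 groups alone (0.0405 and 0.0445). With RLE factors, limma voom, no filter or the newer dispersion method neither was called. Adjusted p-values there were 0.0669 to 0.0773 for Ctsc and 0.0753 to 0.0973 for Ctsl. With a replicate block Ctsl was called (0.0408) and Ctsc was not (0.0887). Of 9 fits without 1 library, 1 called Ctsc and 2 called Ctsl. Ctse had 22.3, 25.9 and 15.2 CPM in asthma, against 13.0, 33.3 and 15.9 CPM in control. Its groups overlapped, with a log2 fold change of 0.03 ± 0.42 (adjusted p = 0.972).

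The number of called cathepsin genes changed when 1 library was left out. It was 0 without asthma replicate 1, control replicate 2 or control replicate 3, 1 without asthma replicate 2 and 2 without control replicate 1, where 171, 182, 357, 248 and 438 genes were called in all. It was 5 without BSYQF replicate 2, which enters through the shared estimate of spread. Without BSYQF replicate 3 it was 7, without asthma replicate 3 it was 8 and without BSYQF replicate 1 it was 9. With any 1 of the 9 libraries left out, the log2 fold changes of the 7 called genes stayed above 0, between 0.61 for Ctsh and 3.93 for Ctsk. The authors' deposited table for this comparison, which compares the same libraries, holds only genes whose log2 fold change was 1 or more in either direction, with an unadjusted p under 0.05, as do the other 2. It lists 6 of the 10 genes among 1746: Ctsk (log2 fold change 3.57), Ctsz (1.72), Ctsb (1.64), Ctss (1.55), Ctsd (1.27) and Ctsl (1.06). Ctsa, Ctsh and Ctsc, with fold changes under that size here, could not be listed.

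**Figure D2:**
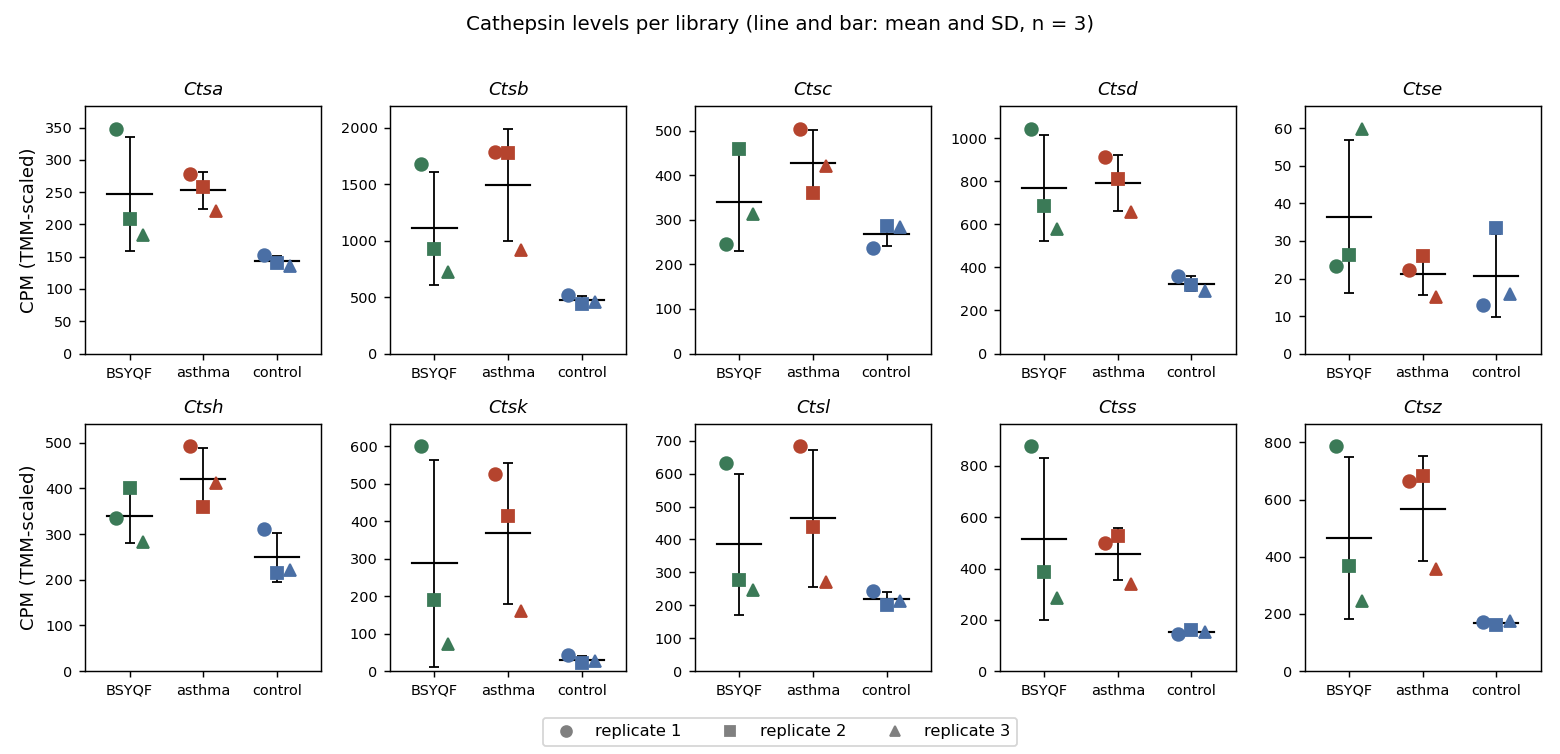
CPM of each cathepsin gene in every library (y axis, from 0) by group, with symbols for the replicates and a line and bar for mean and SD (n = 3). BSYQF replicate 1 and asthma replicates 1 and 2 lie highest for most genes, as for Ctsk at 599.9, 527 and 414 CPM, against 22.7 to 42.3 CPM in the controls.

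BSYQF was set against asthma to ask what the formula changes in the asthmatic lung. No cathepsin gene passed the test: 0 of 10 were called by edgeR's quasi-likelihood test, and 0 had an unadjusted p under 0.05, beside 0.00678% of all genes called and 7.94% with an unadjusted p under 0.05. DESeq2 and limma voom called 0 of the 10 as well. The summed level of the 10 genes was 6568, 3923 and 2990.4 CPM in BSYQF replicates 1, 2 and 3, against 6371, 5648 and 3775 CPM in the asthma libraries. The groups overlapped for every cathepsin gene, while 4.99% of all genes lay wholly higher and 4.76% wholly lower with BSYQF. The fold changes lay below 0 for 8 genes, as for 50.7% of all genes, and above 0 for Ctss and Ctse, with a median of -0.28.

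The BSYQF libraries were far apart. Ctsk had 599.9, 191 and 71.9 CPM in BSYQF replicates 1, 2 and 3, against 527, 414 and 161 CPM in asthma. The highest library of all 9 and the lowest outside the controls were thus both BSYQF libraries, and the ratio of highest to lowest was 8.34 with BSYQF, against 3.26 in asthma and 1.86 in control. The log2 fold change of Ctsk was -0.35 ± 0.67 with a 95% interval of -1.87 to 1.16 (adjusted p = 0.878), which leaves room for changes of either sign. Without BSYQF replicate 1 it was -1.48 (adjusted p = 0.304), and that of Ctss was -0.43 and of Ctsz -0.88, against 0.18 and -0.29 with it. Ctsb had 1679, 924 and 722 CPM with BSYQF, against 1790.1, 1774 and 921 CPM in asthma, with an interval of -1.15 to 0.29. Ctss had 876, 385 and 285 CPM with BSYQF, against 499, 527 and 341 CPM in asthma, with an interval of -0.58 to 0.93.

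Intervals were narrower for Ctsd (-0.55 to 0.46), Ctsa (-0.51 to 0.45), Ctsc (-0.83 to 0.16) and Ctsh (-0.75 to 0.14). They thus cover changes of less than 2-fold only, but they rest on a shared estimate of spread that includes the controls. The SD with BSYQF was 35.7% of the mean for Ctsa, 31.7% for Ctsd and 32% for Ctsc, against 6.49, 10.5 and 10.5% in control. For Ctsh it was 17.4%, against 21.8% in control. Where the controls spread less, the interval may be too narrow. Ctsd had 1043, 685 and 577 CPM with BSYQF, against 909.95, 812 and 655 CPM in asthma. For Ctsz the interval ran from -1.10 to 0.53 and for Ctsl from -1.09 to 0.55. Ctse had 23.3, 26.2 and 59.9 CPM with BSYQF, against 22.3, 25.9 and 15.2 CPM in asthma, with the largest fold change of the 10 genes at 0.79 ± 0.42 and an interval of -0.14 to 1.72 (adjusted p = 0.629). Its high value came from BSYQF replicate 3. A fit without both BSYQF replicate 1 and asthma replicate 3 called 5 of the 10 genes lower with BSYQF (Ctsb, Ctsk, Ctsl, Ctss and Ctsz), but these libraries were picked because they stood high and low in their groups, so that count follows from the choice and supports nothing. A p that misses the threshold does not show that the groups had equal levels. The authors' deposited table for this comparison lists 0 of the 10 genes among 424, but with all 10 fold changes between -0.43 and 0.79 its limit on size leaves no room for them.

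**Figure D3:**
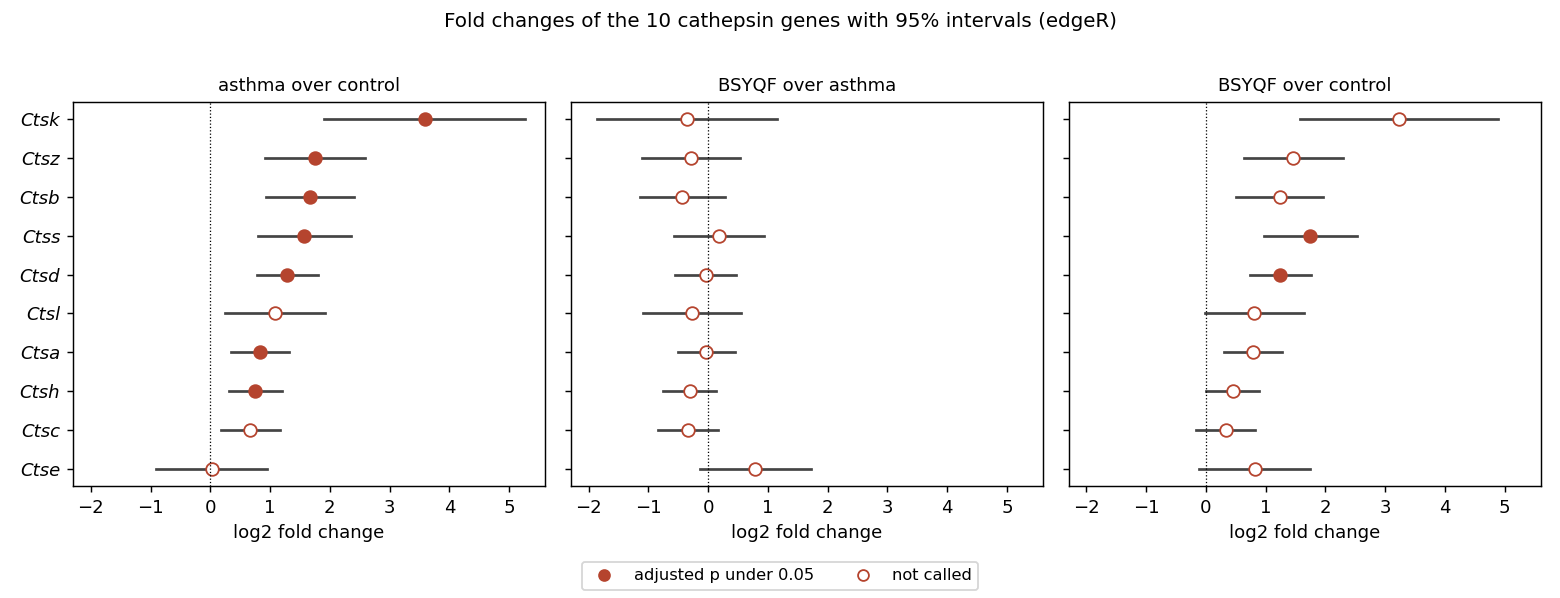
Log2 fold changes (x axis) with 95% intervals for the 10 genes in asthma over control, BSYQF over asthma and BSYQF over control; filled points are called by edgeR at an adjusted p under 0.05. Of the genes 7, 0 and 2 are filled in the 3 panels, and the intervals for BSYQF over asthma all cross 0.

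BSYQF was also set against control, and the comparison shares its controls with that of asthma. Ctsd and Ctss rose in the BSYQF lungs, 2 of 10 genes, beside 1.67% of all genes called and 1.63% called higher. Ctsd had 1043, 685 and 577 CPM with BSYQF, against 360, 319 and 292 CPM in control (1.25 ± 0.23, adjusted p = 0.0268). Ctss had 876, 385 and 285 CPM with BSYQF, against 145, 161 and 154 CPM in control (1.75 ± 0.35, adjusted p = 0.0347). Both stood above every control in each BSYQF library. Without BSYQF replicate 1 the fold change of Ctss was 1.12 (adjusted p = 0.0487). The groups did not overlap for 7 of the 10 genes, which compares with 13% of all genes. With limma voom Ctsd alone was called, and Ctss had an adjusted p of 0.0608.

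The other 8 genes did not pass. The fold change of Ctsk was 3.23 ± 0.74 on the log2 scale (adjusted p = 0.0667), Ctsz of 1.46 ± 0.38 (0.0869), Ctsb of 1.23 ± 0.33 (0.0941) and Ctsa of 0.79 ± 0.22 (0.106). DESeq2 called these 4 together with Ctsd and Ctss. Without BSYQF replicate 1 the fold changes were 2.10 for Ctsk and 0.85 for Ctsz. Ctsl (0.81 ± 0.38), Ctsh (0.45 ± 0.20), Ctsc (0.33 ± 0.23) and Ctse (0.82 ± 0.42) had adjusted p-values of 0.312 to 0.497. The count of 2 was 0 without BSYQF replicate 2 or without any 1 of the controls, 1 without BSYQF replicate 1 or asthma replicate 1, and 4 without BSYQF replicate 3 or asthma replicate 3. The authors' deposited table for this comparison lists 5 of the 10 genes among 896, namely Ctsk, Ctss, Ctsz, Ctsd and Ctsb.

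The members did not all follow the same libraries. In BSYQF replicate 1, 7 of the 10 genes had their highest value of that group, while Ctsc and Ctse had their lowest there. Ctsc stood at 246, 458 and 313 CPM in BSYQF replicates 1, 2 and 3, and Ctsh at 335, 401 and 283 CPM, so that neither peaked in replicate 1. Asthma replicate 3 had the lowest value of its group for 8 of the 10 genes, and Ctsc and Ctsh were the exceptions. The ratio of Ctsk to Ctsh counts, which needs no scaling between libraries, was 1.79, 0.475 and 0.254 with BSYQF, 1.07, 1.16 and 0.393 in asthma, and 0.136, 0.106 and 0.121 in control. Ctsk thus took a larger part relative to Ctsh in all 6 libraries from the model. Its share of the counts of the 10 genes was 2.41 to 9.13% with BSYQF, 4.28 to 8.27% in asthma and 1.15 to 1.93% in control.

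**Figure D4:**
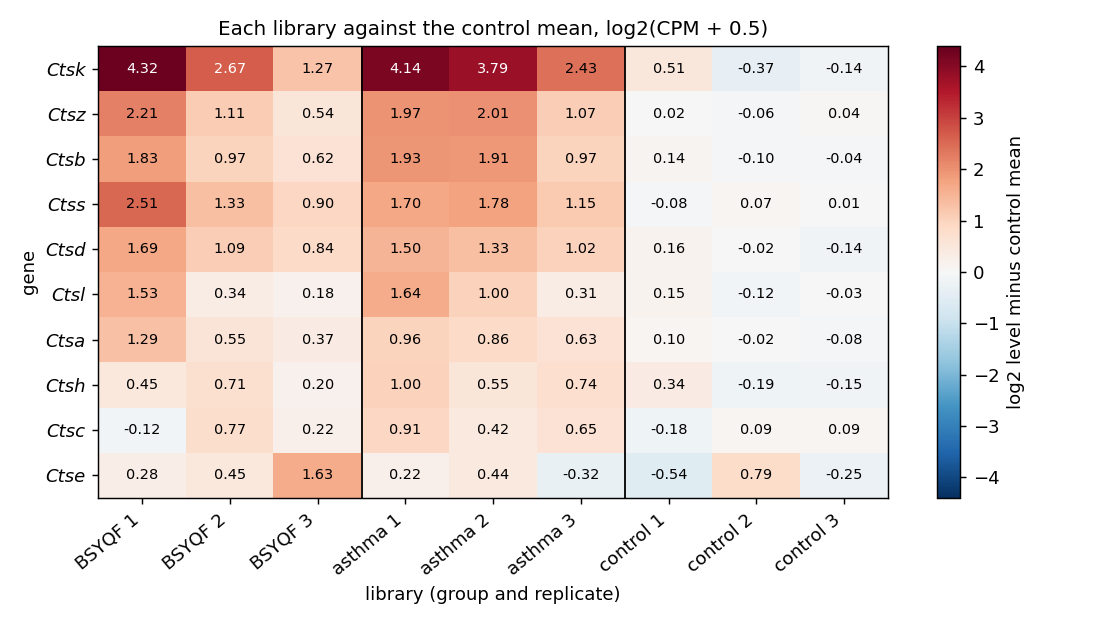
Difference of each library from the control mean on the log2(CPM + 0.5) scale (colour and number) for the 10 genes (rows) in BSYQF, asthma and control libraries (columns). BSYQF replicate 1 reaches 4.32 for Ctsk and -0.12 for Ctsc, and the asthma columns range from 4.14 for Ctsk to -0.32 for Ctse.

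Markers of macrophages and of other cell types differed between the same libraries. Counts of called markers, here and in the next paragraph, are for asthma against control. They are to be read beside 12.7% of all genes called and 8.23% called higher. Of 9 tested markers of lipid-associated and osteoclast-like macrophages, 5 rose in asthma against control and 0 fell. Their summed level was 3480, 990 and 707 CPM in BSYQF replicates 1, 2 and 3, 3240, 3060 and 985 CPM in asthma, and 532 to 613 CPM in control. This order of libraries within each model group is that of the summed cathepsins. Spp1 had it, with 319, 169 and 91.3 CPM with BSYQF and 1298, 903 and 159 CPM in asthma, but the other markers on the list did not. Acp5, Atp6v0d2, Dcstamp, Ocstamp and Mmp12 were higher in asthma replicate 2 than in replicate 1, and Cd9 was highest in asthma replicate 3. Gpnmb and Fabp5 were lower in BSYQF replicate 2 than in replicate 3. The summed other lysosomal peptidases and lysosomal hydrolases had the order of the summed cathepsins too. The hydrolases had 7050, 5170 and 4210 CPM with BSYQF and 6640, 6370 and 5090 CPM in asthma. The elastase Mmp12 had 992, 1217 and 77.5 CPM in asthma, against 5.73 to 7.08 CPM in control (6.86 on the log2 scale, adjusted p = 0.0311). Of 9 tested interstitial macrophage markers 7 rose, with sums of 1480 to 2020 CPM with BSYQF, 1350 to 1410 CPM in asthma and 892 to 1130 CPM in control. Apoe, which was not called (-0.10), held 1379, 925 and 1342 CPM of these sums in BSYQF replicates 1, 2 and 3. In asthma Apoe held 807, 694.5 and 748 CPM. The median log2 fold change of the 9 markers for BSYQF over asthma was -0.24. Of 10 alveolar macrophage markers 1 rose, the mannose receptor Mrc1, with sums of 591 to 4760, 879 to 2640 and 402 to 470 CPM for BSYQF, asthma and control. In BSYQF replicate 1, 4244 CPM of that sum came from Chil3. Trem2 is on the first 2 of these lists and was at 0.

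Of 4 pan-leukocyte markers Cd52 and Laptm5 rose, and Ptprc (CD45) did not pass at 0.04 (adjusted p = 0.936). The sums were 963 to 1220 CPM with BSYQF, 759 to 1300 CPM in asthma and 479 to 819 CPM in control. Alveolar type 2 markers, which with 22100 to 33800, 23400 to 30600 and 23100 to 26900 CPM overlapped between all groups, had 1 of 8 called, Sftpd. The summed level of 8 mitochondrial transcripts was 60600, 31200 and 21500 CPM in BSYQF replicates 1, 2 and 3. It was 44300, 99600 and 33800 CPM in asthma and 18600 to 29500 CPM in control. The order with BSYQF is that of the summed cathepsins, while in asthma replicate 2 stood highest and replicate 3 lowest. In asthma against control 0 of the 8 were called, all with an unadjusted p under 0.05 and adjusted p-values from 0.0533. Their median log2 fold change was 1.37. Of 10 dendritic cell markers 4 rose, among them Ccl22 (2.74) and Fscn1 (1.68), with sums of 278 to 334 CPM with BSYQF, 244 to 343 CPM in asthma and 196 to 211 CPM in control. Of 9 mast cell markers 3 rose, with sums of 256 to 349 CPM with BSYQF, 280 to 491 CPM in asthma and 245 to 295 CPM in control. One of them, the protease Mcpt1, had 35.7, 5.46 and 2.13 CPM with BSYQF and 20.9, 69.7 and 4.48 CPM in asthma, and at most 0.117 CPM in control. Of 8 airway secretory markers 3 rose and 1 fell, and their sums overlapped between all groups. The goblet cell gene Clca1, one of the 3, had 4378, 351 and 88.7 CPM with BSYQF, 1198, 3402 and 275 CPM in asthma, and at most 2.92 CPM in control. It was thus highest in BSYQF replicate 1 and lowest of its group in asthma replicate 3, as most cathepsins were. Plasma and B cell markers summed to 4640 to 5000 CPM with BSYQF, 3540 to 4940 CPM in asthma and 793 to 869 CPM in control, with 3 of 8 higher in asthma than in control. Of 8 cardiac muscle markers 7 fell in asthma against control, with sums of 435 to 1360 CPM with BSYQF, 124 to 229 CPM in asthma and 435 to 988 CPM in control. Of 6 adipocyte markers 5 fell, with sums of 118 to 476 CPM with BSYQF, 19.7 to 39.4 CPM in asthma and 116 to 566 CPM in control. The part of these cell markers and of RNA quality in the cathepsin result was not tested.

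**Figure D5:**
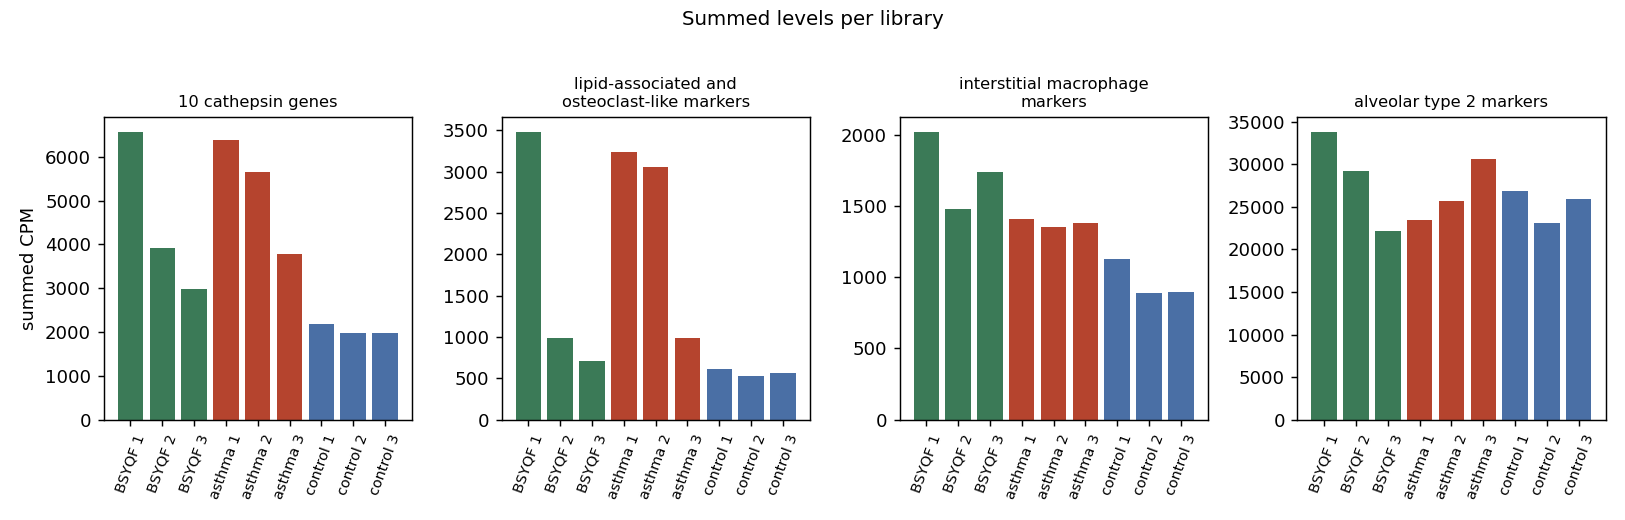
Summed CPM per library (y axes from 0) of the 10 cathepsin genes and of 3 marker lists, for BSYQF, asthma and control replicates. The cathepsin sum is 6568, 3923 and 2990.4 in BSYQF, 6371, 5648 and 3775 in asthma and 1975 to 2192 in control, and the alveolar type 2 markers overlap between the groups.

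The genes with the most similar profiles were found by the root mean square difference of log2 levels over the 9 libraries, each gene centred on its own mean, among 14307 named genes. For Ctsb these were Clec4a3, a C-type lectin-like receptor of myeloid cells (0.11), Psap, the precursor of the saposins that activate lysosomal lipid hydrolases (0.12), and Gla, the lysosomal alpha-galactosidase A (0.12). For Ctsz they were Capg, an actin-capping protein (0.15), the Fc receptor Fcgr3 (0.16) and Psap (0.17). For Ctsd they were Glipr1, Cd200r4 and Incenp (0.15 each). Psap had 3485, 1986 and 1491 CPM with BSYQF, 3174, 3077 and 1783 CPM in asthma, and 1026, 974 and 1010 CPM in control, which repeats the order of the libraries seen for Ctsb within asthma and BSYQF. The 9 libraries share the group differences, so likeness is a description with no test.

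Among other lysosomal peptidases 2 of 8 rose in asthma against control and 0 fell, beside 12.7% of all genes called. Lgmn, the asparaginyl endopeptidase legumain, which processes several cathepsins, rose by 1.64 ± 0.27 (adjusted p = 0.0100), and the carboxypeptidase Scpep1 by 0.49 ± 0.14 (adjusted p = 0.0430). Napsa, the aspartic protease of alveolar type 2 cells, did not pass (0.08 ± 0.15). The other cathepsin genes gave 0 calls among the 3 tested: Ctsf had -1.03 ± 0.32 (adjusted p = 0.0581), Ctso -0.36 ± 0.16 and Ctsw, a protease of cytotoxic lymphocytes, 0.03 ± 0.38. Of 13 such genes 9 had 0 counts in every library, and Ctsg had at most 25 counts and was not tested.

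Of 8 tested cathepsin inhibitors and related serpins 2 rose and 0 fell, beside 12.7% of all genes called. Cstb, the intracellular cystatin B, rose by 1.98 ± 0.38 (adjusted p = 0.0140), and the serpin Serpina3n by 3.22 ± 0.40 (adjusted p = 0.00420). Cst3, the secreted cystatin C, stood at -0.52 ± 0.18 (adjusted p = 0.0774), and Cst7, cystatin F, 0.64 ± 0.40 (adjusted p = 0.280). Serpina3n was also higher with BSYQF than in control (2.14 on the log2 scale, adjusted p = 0.0264).

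The sorting route had 1 of 10 genes called, beside 12.7% of all genes. Gnptab, the subunit of the enzyme that builds the mannose 6-phosphate tag, rose by 0.55 ± 0.14 (adjusted p = 0.0368). The receptors M6pr (0.34 ± 0.13) and Igf2r (0.32 ± 0.13) did not pass. Of 19 genes of the lysosomal membrane, proton pump and their transcription factors 4 rose and 0 fell, beside 12.7% of all genes called. They were the tetraspanin Cd63 (1.86 ± 0.36), the macrophage protein Cd68 (2.10 ± 0.56) and the proton pump subunits Atp6v1b2 (0.85 ± 0.19) and Atp6v0e (0.67 ± 0.19). Lamp1, an abundant glycoprotein of that membrane, had -0.12 ± 0.16, and Tfeb 0.20 ± 0.16, neither called.

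Of 23 lysosomal hydrolases and lipid-handling proteins other than peptidases 9 rose and 0 fell, beside 12.7% of all genes called. Among them were Gla (1.52 ± 0.30), the sulfatase Galns (0.95 ± 0.19), Gusb, the beta-glucuronidase (0.71 ± 0.15), and Psap (1.42 ± 0.32). The median of that list was 0.36 on the log2 scale, beside 1.19 for the 10 cathepsins and 0.02 over all genes. In BSYQF against asthma 0 genes of these 5 lists of lysosomal peptidases, inhibitors, sorting, membrane and hydrolases were called. Of all genes tested 0.00678% were called there, so the count of 0 does not set these lists apart.

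Genes of the processes the cathepsins serve were called at shares to be read against the 12.7% of all genes called. Of 10 tested genes of MHC class II presentation, where Ctss acts, 1 rose in asthma against control, the peptide-loading subunit H2-DMb1 (0.95 ± 0.22, adjusted p = 0.0252). The invariant chain gene Cd74 had 0.50 ± 0.19 (adjusted p = 0.0996). Of 8 tested serine proteases that Ctsc can activate 1 rose, the mast cell tryptase Tpsab1 (3.60 ± 0.995, adjusted p = 0.0444). Of 9 matrix genes Thbs1 (1.47 ± 0.37, adjusted p = 0.0323) and the collagen Col3a1 (0.90 ± 0.25, adjusted p = 0.0415) rose, while elastin (Eln) had 0.34 ± 0.30 (adjusted p = 0.447).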

How the data were processed

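Per the labels' protocols, RNA was isolated with Trizol from lung and 3 µg of total RNA went into each NEBNext Ultra library. Named without versions in the submitters' processing notes are STAR, HTSeq, cutadapt, FastQC, DESeq2 and the build mm10; no source used here gives the annotation or strand setting. Tests used the raw counts per gene symbol that the authors deposited. The log2 fold changes and p-values of 3 comparisons, deposited by the authors per the file headers, were used only as named; 36 further columns of values per library were not used.

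Counts were filtered with filterByExpr, scaled by TMM and fitted in 1 model of 3 groups with edgeR 4.0.16 (R 4.3.3; legacy dispersion method, robust glmQLFit, glmQLFTest), and the code was tested on simulated data. The SE is the log2 fold change divided by the square root of F. Alternatives were RLE factors, DESeq2 1.42.0, limma 3.58.1 (voom), no filter, the newer dispersion method, a replicate block, 2 groups only and each library left out.

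The members and lists were chosen with earlier results of these data known. All members were named, with up to 4 genes per list by p, genes defining its step, markers and the 3 nearest profiles. One gene that this rule names is not reported here. Coordinates are GENCODE vM21 (GRCm38), 1-based, and promoters RefSeq's (GRCm38.p6). The intervals printed are those of the fold changes, and they include the spread between libraries.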

Additional observations from a re-analysis of the deposited data

How the results depend on the processing

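In asthma against control, 7 cathepsin genes were called under RLE size factors, limma voom, no filter and the newer dispersion method, 8 with a replicate block and 9 with DESeq2 or with 2 groups only. Leaving out 1 library gave 0 to 9 called cathepsin genes and 171 to 4262 genes in all, beside 7 and 1869. DESeq2 called 3315 genes in this comparison. In BSYQF against asthma 0 cathepsin genes were called under each of these alternatives and with any 1 library left out. The count over all genes, 1, was 123 with DESeq2, 15 with a replicate block, 0 with limma voom and 0 with 2 groups only, and 0 to 114 without 1 library. In BSYQF against control the 2 called cathepsin genes were 6 with DESeq2, 1 with limma voom and 0 to 4 without 1 library, and the 246 genes were 826 with DESeq2, 90 with limma voom, 389 with 2 groups only and 9 to 563 without 1 library. The cause of these shifts was not tested. Chosen after seeing the data, a further fit left out both BSYQF replicate 1 and asthma replicate 3. It called 5361 genes, 9 of them cathepsins, for asthma over control and 427, with 5 cathepsins, for BSYQF over control. For BSYQF over asthma it called 1744, with 5 cathepsins, and Ctss stood at -0.61. These libraries were picked for standing high and low in their groups, so the choice follows the outcome and the counts support nothing.

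On leaving out 1 library, signs changed only in genes that were not called. In asthma against control the log2 fold change of Ctse ran from -0.22 to 0.55. In BSYQF against asthma it ran from -0.35 to 0.14 for Ctsa, -0.32 to 0.13 for Ctsd, -1.48 to 0.11 for Ctsk, -0.82 to 0.13 for Ctsl, -0.43 to 0.47 for Ctss and -0.88 to 0.020 for Ctsz.

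The replicate numbers of the labels did not pair the libraries. Correlations of same-numbered libraries were -0.177 to -0.0194 for asthma and control, -0.163 to 0.372 for BSYQF and asthma, and -0.304 to -0.053 for BSYQF and control. With the block, 1469, 15 and 237 genes were called, and 8, 0 and 3 cathepsin genes. Only 1 of the 3 BSYQF libraries correlated best with the asthma library of its own number.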

Other observations

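BSYQF replicate 3, which had the highest Ctse of the 9 libraries (59.9 CPM), also had the highest neutrophil marker sum. It was highest too for the summed T and NK cell markers (130 CPM), the summed cardiac muscle markers (1360 CPM) and Ptprc (377 CPM). The 8 neutrophil markers summed to 151, 945 and 2050 CPM in BSYQF replicates 1, 2 and 3, against 337 to 578 CPM in asthma and 188 to 735 CPM in control. The granule protein gene Ngp had 286 CPM in that library and 1.70 to 11.6 CPM in the other 8, and Camp, the cathelicidin gene, had 67.7 CPM beside 0.745 to 5.11 CPM. Ctsg, the neutrophil serine protease cathepsin G, had 25 counts there. BSYQF replicate 1, with the highest Ctsk and Ctss of all libraries, had the lowest neutrophil marker sum. None of the 8 neutrophil markers was called in asthma against control, and whether neutrophils or other cells bear on Ctse was not tested.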
